A study of Bos taurus with 6 samples.

Results

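The genes described here are 10 members of the Hippo pathway and of the group of genes driven by its effector YAP, taken by name from 23704 genes to which the transcripts of the series could be summed. They are the coactivators YAP1 and WWTR1 (also called TAZ), the DNA-binding factor TEAD1, the kinase LATS2, the angiomotin-like proteins AMOTL1 and AMOTL2, and the target genes CCN1, CCN2, ANKRD1 and AXL. All 10 were found by their current symbols, and CCN1 and CCN2 carry the older names CYR61 and CTGF. Their RNA was sequenced from pools of bovine primordial follicles (PMF), each an oocyte with a layer of flattened pre-granulosa cells, isolated by mechanical means from ovaries of young Holstein Friesian dairy cows of an abattoir. The 3 libraries of the T0 group were made from PMF retrieved after collection, and the 3 libraries of the T16 group from PMF retrieved after 16 h of culture. The labels name no drug or genetic change in either group, and both share the isolation. The study's methods describe a short recovery of PMF in medium with insulin, transferrin, selenium and FSH before lysis, and do not describe the culture. Each library is a pool of follicles, labelled as a replicate. The study's methods describe collections from many animals and call its pools biological replicates, and the sources used here do not say which animals went into which of these 6 pools, so p-values measure the spread between pools.

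The Hippo pathway is a kinase cascade in which STK3 and STK4, with their scaffold SAV1, activate LATS1 and LATS2, and the LATS kinases in turn phosphorylate YAP1 and WWTR1 and hold them in the cytoplasm. Where the cascade is quiet, YAP1 and WWTR1 enter the nucleus, bind TEAD factors and switch on genes such as CCN1, CCN2 and ANKRD1. The cascade responds to cell contact, cell shape and tension of the actin cytoskeleton. In the ovary, cutting or fragmenting the cortex is known to disturb this signalling and to promote follicle growth. The pathway acts mainly through protein phosphorylation and location, which RNA levels do not measure.

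The libraries held 22174653 to 36703016 estimated counts, and each member was detected in each library, with at least 273 counts. Of the lists of cell type markers, the 12 oocyte genes were all above 0 in all 6 libraries. In T16 replicate 2, however, DPPA3 had 1 and BMP15 8 estimated counts. The oocyte list summed to 460.8 to 2718 TPM, a measure scaled for transcript length and library size, at T0. At T16 it summed to 78.5 to 1913 TPM, and the lowest sums were in T0 replicate 1 and T16 replicate 2. The 10 granulosa markers summed to 942 to 1755 TPM at T0 and 433 to 2291 TPM at T16, and 3 of the 10, FOXL2, FSHR and WNT6, were lower in every T16 library than in any T0 library, as 10.6% of all genes tested were. The other granulosa genes overlapped, and GJA1, KITLG and INHBB had higher means at T16, with log2 fold changes of 1.02, 0.59 and 0.43. For GJA1 and INHBB the higher mean rested on T16 replicate 2, with 1495 and 12.3 TPM. GJA1 had 239 to 448 TPM at T0 and 244 and 299 TPM in T16 replicates 1 and 3. INHBB had 0.767 to 5.18 TPM at T0 and 0.100 and 2.12 TPM in T16 replicates 1 and 3. Without GJA1, the granulosa sums were 493.5 to 1410 TPM at T0 and 134 to 796 TPM at T16. Markers of other cells were present too: the 10 smooth muscle and pericyte genes summed to 118 to 495 TPM at T0 and 34.8 to 307 TPM at T16, and the 10 stroma genes to 1107 to 2456 TPM and 300.4 to 1672 TPM. The 10 endothelial genes summed to 23.6 to 395 TPM and 34.1 to 53.8 TPM, and the 8 leukocyte genes to 9.70 to 46.4 TPM and 2.74 to 53.9 TPM. In such bulk samples, fewer cells of a type and less RNA per cell cannot be told apart.

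WWTR1, TEAD1 and AXL were higher in all 3 T16 libraries than in any T0 library, by 6.26, 2.38 and 3.56-fold. Of the classic YAP target genes, CCN1 and CCN2 overlapped between the groups, and ANKRD1, with a fitted level 5.24-fold lower at T16, overlapped as well. None of the 10 members was called at an adjusted p below 0.05 by the quasi-likelihood test of edgeR, where 0.0410% of the 14639 genes tested were called. At an unadjusted p below 0.05 there were 4 members, 3 higher and 1 lower, against 13.8% of all genes. Those 4 (WWTR1, TEAD1, AXL and ANKRD1) were called by DESeq2, an alternative here, which called 7.02% of the genes tested. DESeq2 is the tool with which the study compared follicle stages. By normalised counts, every T16 library lay above every T0 library for 3 of the 10 members, against 13.2% of genes tested, and below for 0 members, against 10.6%. The median log2 fold change of the 10 members was 0.54, and that of the genes tested was -0.08.

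**Figure D1:**
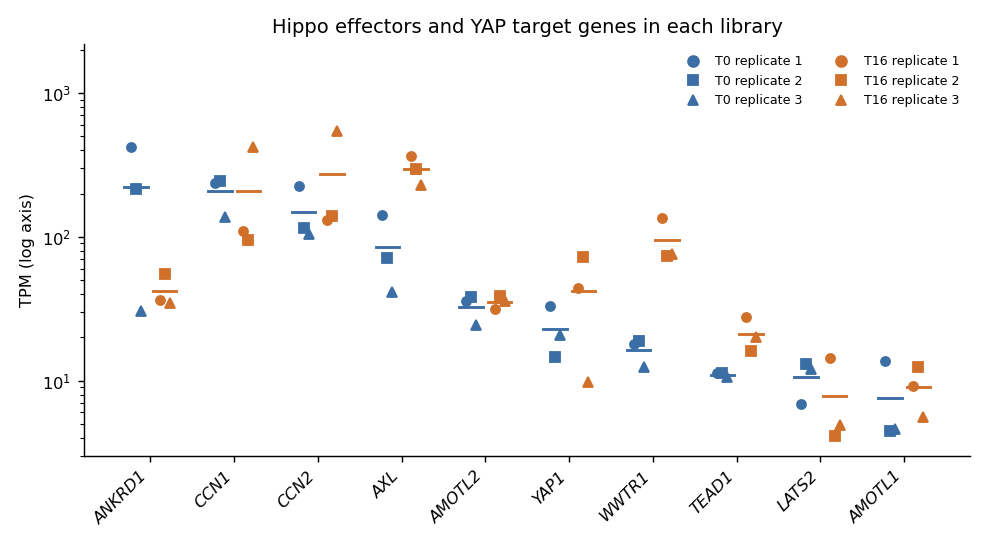
TPM of the 10 genes in each of the 6 libraries, with a log scale on the vertical axis; each point is a library, horizontal lines are group means, blue is T0, orange is T16 and the shape is the replicate. The orange points of WWTR1, TEAD1 and AXL all lie above the blue points, whereas CCN1, CCN2 and ANKRD1 overlap between the groups.

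At T0 the target genes were the most abundant members and the effectors were modest. Ordered by mean TPM, which is corrected for transcript length, the T0 levels ran from ANKRD1 (222 TPM), CCN1 (207 TPM) and CCN2 (149 TPM) through AXL (84.9 TPM) and AMOTL2 (32.7 TPM) to YAP1 (22.7 TPM), WWTR1 (16.4 TPM), TEAD1 (11.0 TPM), LATS2 (10.7 TPM) and AMOTL1 (7.56 TPM). ANKRD1 was above 95.4% of the genes with a mean above 0 at T0, and TEAD1 above 55.8% of them. Neighbours in this order overlapped in their 3 libraries in 7 of 9 places, and the steps that did not overlap were those from AXL to AMOTL2 and from WWTR1 to TEAD1. At T16 the order was headed by AXL (298 TPM) and CCN2 (273 TPM), followed by CCN1 (209 TPM) and WWTR1 (94.9 TPM). Behind them came ANKRD1 (42.1 TPM), YAP1 (41.8 TPM), AMOTL2 (35.3 TPM), TEAD1 (21.3 TPM), AMOTL1 (9.09 TPM) and LATS2 (7.81 TPM). Here 3 steps did not overlap, from WWTR1 to ANKRD1, from AMOTL2 to TEAD1 and from TEAD1 to AMOTL1.

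WWTR1 (NCBI gene 614786), the paralog of YAP1 and a coactivator of the TEAD factors, had the largest fold change of the members that were higher at T16. Its levels were 17.9, 18.8 and 12.5 TPM in T0 replicates 1, 2 and 3, and 136, 73.5 and 75.7 TPM in T16 replicates 1, 2 and 3. The lowest T16 library was far above the highest T0 library. The T0 mean was 16.4 TPM (SD 3.41, n = 3), and the T16 mean was 94.9 TPM (SD 35.2, n = 3). The log2 fold change was 2.65 (SE 0.39, edgeR adjusted p = 0.0872), with a 95% interval of 1.74 to 3.55, and it was larger than that of 98.5% of the genes tested. Over the 13 alternative settings the log2 fold change stayed between 2.31 and 2.91, while the adjusted p ranged from 2.05e-07 with DESeq2 to 0.369 without T0 replicate 2. Only DESeq2 among these settings called WWTR1.

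All 3 annotated transcripts of WWTR1 were higher at T16. The transcript of 3553 bases held the largest share of the TPM of the gene in each library, with 48.0% to 65.7% at T0 and 64.5% to 68.6% at T16, and its mean went from 8.83 to 63.8 TPM. The transcripts of 4753 and 1756 bases averaged 4.40 and 3.20 TPM at T0 and 20.0 and 11.1 TPM at T16. Salmon divides reads between transcripts that share sequence, so these shares are estimates.

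YAP1 (NCBI gene 100336629), the best known effector of the pathway, showed no such separation. It had 33.0, 14.6 and 20.6 TPM in T0 replicates 1, 2 and 3, and 43.8, 72.0 and 9.73 TPM in T16 replicates 1, 2 and 3. T16 thus held both the highest and the lowest library, 7.39-fold apart, and the groups overlapped. For YAP1 the log2 fold change was 0.81 (SE 0.68, edgeR adjusted p = 0.683), and its 95% interval of -0.79 to 2.42 includes 0, values below it, and an increase of the size seen for TEAD1. Leaving out T16 replicate 2 gave 0.09, and leaving out T0 replicate 1 gave 1.32. Of the 8 YAP1 transcripts in the files, 6 were above 0, and the one of 4944 bases held 49.7% to 79.1% of the TPM of the gene in every library.

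Within a library, WWTR1 was less abundant than YAP1 in T0 replicates 1 and 3 and more abundant or equal in the others. The ratio of WWTR1 to YAP1 in TPM was 0.544, 1.29 and 0.608 in T0 replicates 1, 2 and 3, and 3.10, 1.02 and 7.78 in T16 replicates 1, 2 and 3. The means of this log2 ratio were -0.41 (SD 0.68, n = 3) at T0 and 1.54 (SD 1.47, n = 3) at T16, and T16 replicate 2, which was among the libraries lowest in oocyte markers, overlapped with T0 (exact permutation test, two-sided, p = 0.2, adjusted p = 0.25 over the 5 ratios tested). With 3 libraries against 3, that test cannot go below 0.1.

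TEAD1 (NCBI gene 536560), which binds DNA at YAP target genes, was the most even member at T0. It had 11.3, 11.2 and 10.5 TPM in T0 replicates 1, 2 and 3, where the highest was 1.07 times the lowest, and 27.6, 16.1 and 20.1 TPM in T16 replicates 1, 2 and 3. No T16 library reached down to the T0 range. The log2 fold change was 1.25 (SE 0.34, 95% interval 0.46 to 2.04, edgeR adjusted p = 0.159). The adjusted p was 0.0357 with DESeq2 and up to 0.641 in the other settings, while the log2 fold change lay between 0.98 with transcript length offsets and 1.54. The transcripts of TEAD1 differ greatly in length, and different ones were assigned the reads in different libraries: a transcript of 5862 bases had 16.7 TPM in T16 replicate 1 and 0 to 2.84 TPM elsewhere, and a transcript of 9890 bases had 3.88 TPM in T0 replicate 1 and 0 TPM in the other 5 libraries. A microRNA gene, MIR2314, lies within TEAD1 in the annotation used.

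The other TEAD genes overlapped between the groups. TEAD2 was more abundant, with 72.0, 53.8 and 40.1 TPM in T0 replicates 1, 2 and 3 and 26.5, 125 and 31.7 TPM in T16 replicates 1, 2 and 3 (log2 fold change 0.17, SE 0.63, edgeR adjusted p = 0.944). TEAD3 averaged 17.5 TPM (SD 10.8, n = 3) at T0 and 9.99 TPM (SD 8.01, n = 3) at T16 (log2 fold change -0.67, SE 0.69, edgeR adjusted p = 0.750). VGLL4, which competes with YAP1 for TEAD factors, had 36.6, 74.0 and 66.8 TPM in T0 replicates 1, 2 and 3 and 81.5, 5.95 and 7.07 TPM in T16 replicates 1, 2 and 3 (log2 fold change -0.79, SE 1.03, edgeR adjusted p = 0.812). Of the list of 10 coactivators, TEAD and VGLL genes, 8 were tested, of which edgeR called 0 (2 at an unadjusted p below 0.05, both higher). The 2 were WWTR1 and TEAD1, both among the 10 genes described, and 13.8% of all genes tested had such a p in either direction. DESeq2 called the same 2 genes, against 7.02% of all genes tested. They were also the ones with all T16 libraries above T0, against 13.2% of all genes tested. The median log2 fold change of the list was 0.23. VGLL1 was at 0 in all 6 libraries, and TEAD4 was not analysed here.

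**Figure D2:**
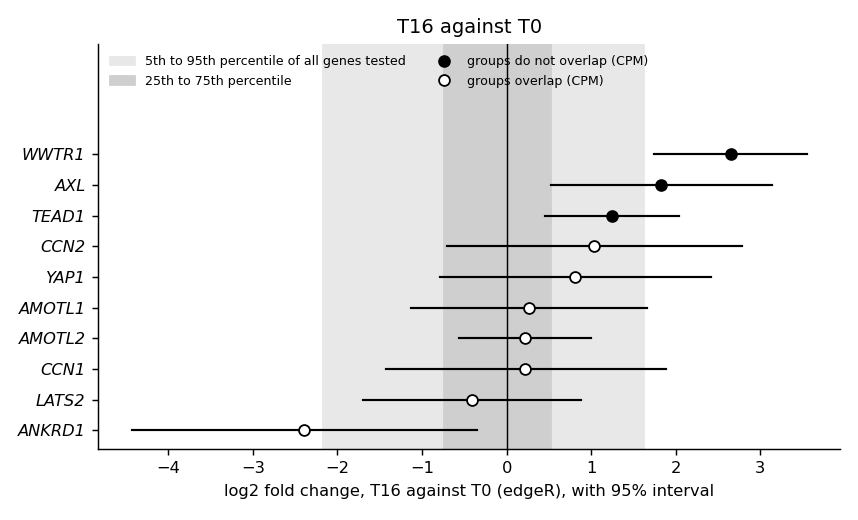
Log2 fold change of each of the 10 genes at T16 against T0 by edgeR, with its 95% interval; filled points are genes whose groups did not overlap, and the grey bands span all 14639 genes tested from the 5th to the 95th percentile (light) and between the quartiles (dark). WWTR1, at 2.65, and AXL, at 1.83, lie above the 95th percentile of 1.62, and ANKRD1, at -2.39, lies below the 5th percentile of -2.17.

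LATS2 (NCBI gene 508208), a kinase that restrains YAP1 and WWTR1 and is itself a YAP target, had low levels in both groups. It had 6.83, 13.1 and 12.04 TPM in T0 replicates 1, 2 and 3 and 14.4, 4.09 and 4.93 TPM in T16 replicates 1, 2 and 3. The highest and the lowest libraries were both at T16. In each group LATS2 was lowest in the library lowest in oocyte markers, T0 replicate 1 and T16 replicate 2, as was VGLL4. YAP1 and AMOTL1 were highest of their groups in those same libraries. The part of cell content in these levels was not tested. edgeR gave LATS2 a log2 fold change of -0.41 (SE 0.55, 95% interval -1.70 to 0.88, edgeR adjusted p = 0.819), or -1.21 without T16 replicate 1 and -0.09 without T16 replicate 2.

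Its paralog LATS1 had 10.7, 16.1 and 17.1 TPM in T0 replicates 1, 2 and 3 and 49.7, 28.3 and 19.4 TPM in T16 replicates 1, 2 and 3. All T16 libraries were above T0 (log2 fold change 1.24, SE 0.36, edgeR adjusted p = 0.192). LATS2 was below LATS1 in each library, and its ratio to LATS1 was 0.636, 0.815 and 0.705 in T0 replicates 1, 2 and 3 and 0.290, 0.145 and 0.254 in T16 replicates 1, 2 and 3. The 2 groups of ratios did not overlap. The mean log2 ratio was -0.48 (SD 0.18, n = 3) at T0 and -2.18 (SD 0.53, n = 3) at T16 (exact permutation test, two-sided, p = 0.1, which is the lowest it can give here, adjusted p = 0.25 over the 5 ratios).

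AMOTL1 (NCBI gene 541209) and AMOTL2 (NCBI gene 538514), junction and actin proteins that bind YAP1, overlapped between the groups. AMOTL1 had 13.6, 4.45 and 4.62 TPM in T0 replicates 1, 2 and 3 and 9.19, 12.5 and 5.56 TPM in T16 replicates 1, 2 and 3. Its highest and lowest libraries were both at T0, and its log2 fold change was 0.27 (SE 0.59, 95% interval -1.13 to 1.66, edgeR adjusted p = 0.899), or -0.03 when T0 replicate 2 was left out and 1.17 when T0 replicate 1 was. The files held 3 of the 7 AMOTL1 transcripts in the annotation used, so its level rests on those.

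AMOTL2 was the most even member over all 6 libraries, and the highest was 1.57 times the lowest. It had 35.7, 37.9 and 24.6 TPM in T0 replicates 1, 2 and 3 and 31.6, 38.5 and 35.9 TPM in T16 replicates 1, 2 and 3. edgeR fitted AMOTL2 at a log2 fold change of 0.22 (SE 0.33, edgeR adjusted p = 0.844), and its 95% interval of -0.56 to 1.00 leaves room for changes in either direction. It was -0.01 without T0 replicate 3. AMOTL2 exceeded AMOTL1 in every library, by 2.63 to 8.51-fold at T0 and 3.08 to 6.46-fold at T16. The founding angiomotin gene, AMOT, was at 2.63 to 2.97 TPM at T0 and 0.279 to 2.55 TPM at T16 (log2 fold change -1.04, SE 0.76, edgeR adjusted p = 0.629).

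CCN1 (NCBI gene 508941) and CCN2 (NCBI gene 281103) encode secreted matrix proteins and are the usual readouts of YAP activity; they also respond within a short time to serum and stress, as immediate early genes do. CCN1 had 239, 245 and 138 TPM in T0 replicates 1, 2 and 3 and 111, 94.8 and 422.5 TPM in T16 replicates 1, 2 and 3. In T16 replicate 3 it was above all T0 libraries, and in the other T16 libraries below all of them. The group means were 207 TPM (SD 60.3, n = 3) and 209 TPM (SD 185, n = 3). The log2 fold change of 0.22 (SE 0.70, 95% interval -1.43 to 1.88, edgeR adjusted p = 0.931) became -1.03 once T16 replicate 3 was left out, and -0.07 once T0 replicate 3 was.

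CCN2 had 227, 116 and 105 TPM in T0 replicates 1, 2 and 3 and 132, 140 and 545 TPM in T16 replicates 1, 2 and 3. T16 replicate 3 again stood above the rest, with 66.7% of the TPM summed over the T16 libraries, and for CCN1 the same library held 67.3%. For CCN2 the log2 fold change was 1.04 (SE 0.75, 95% interval -0.71 to 2.79, edgeR adjusted p = 0.621), and -0.18 without T16 replicate 3. In T16 replicate 3, YAP1 was at its lowest of the 6 libraries, at 9.73 TPM, and WWTR1 was 7.78 times as abundant as YAP1. WWTR1 itself had 75.7 TPM there, near the 73.5 TPM of T16 replicate 2 and below the 136 TPM of T16 replicate 1. The summed stroma markers of T16 replicate 3, 1672 TPM, were the highest of the T16 libraries but below the 2456 TPM of T0 replicate 1. The part of YAP1, WWTR1 and stroma cells in the CCN1 and CCN2 levels was not tested.

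The 2 CCN genes followed similar patterns over the libraries but changed places in abundance. CCN1 exceeded CCN2 in each T0 library, by 1.05, 2.11 and 1.31-fold in replicates 1, 2 and 3, and was below it in each T16 library, at 0.840, 0.676 and 0.775 of its level. The mean log2 ratio was 0.52 (SD 0.51, n = 3) at T0 and -0.40 (SD 0.16, n = 3) at T16, a difference that did not overlap between groups but that 3 libraries a side cannot bring below p = 0.1 (exact permutation test, two-sided, p = 0.1, adjusted p = 0.25 over the 5 ratios).

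**Figure D3:**
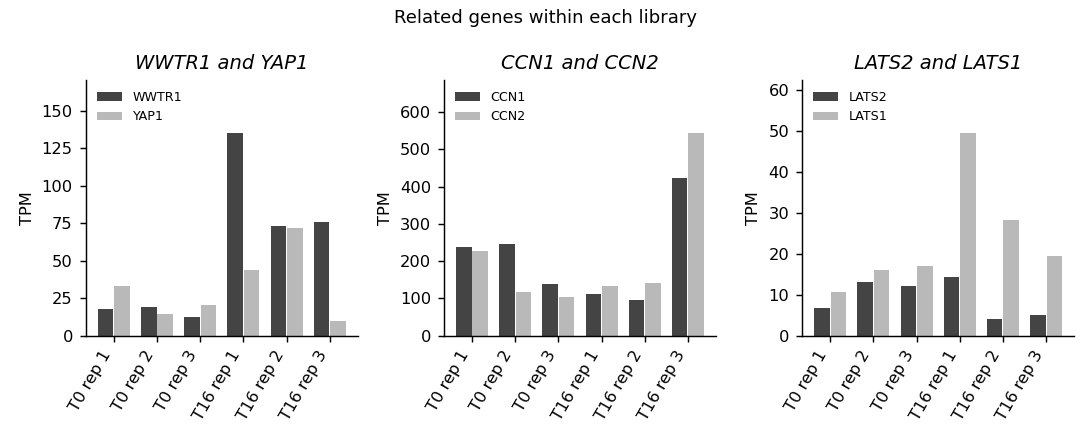
TPM of WWTR1 and YAP1, CCN1 and CCN2, and LATS2 and LATS1 in each library, as bars from 0. CCN1 is above CCN2 in the 3 T0 libraries and below it in the 3 T16 libraries, LATS2 is below LATS1 throughout, and WWTR1 and YAP1 are nearly equal in T16 replicate 2 alone among the T16 libraries.

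The other CCN genes were scarce. CCN4 had 0.740 to 1.55 TPM at T0, and 0, 3.07 and 8.76 TPM in T16 replicates 1, 2 and 3. CCN3 and CCN6 did not exceed 6.89 TPM in any library, and CCN5, with 12 counts in T0 replicate 1 and 0 in the other 5 libraries, did not pass the filter on low counts. Of the 6 genes of the family, 5 were tested and edgeR called 0 of them (0 at an unadjusted p below 0.05, and 0 by DESeq2), with a median log2 fold change of 0.22.

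ANKRD1 (NCBI gene 510376), an ankyrin repeat protein of muscle and stressed cells and a sensitive YAP target, was the only member with an unadjusted p below 0.05 and a lower mean at T16. Its levels were 420.0, 217 and 30.4 TPM in T0 replicates 1, 2 and 3, and 36.1, 55.6 and 34.7 TPM in T16 replicates 1, 2 and 3. T0 replicate 3 lay below all T16 libraries, so the groups overlapped, and the T0 libraries themselves were 13.8-fold apart. ANKRD1 had a log2 fold change of -2.39 (SE 0.87, 95% interval -4.43 to -0.35, edgeR adjusted p = 0.283), and it was -1.37 without T0 replicate 1, the library with 63.0% of the summed T0 level. DESeq2 gave an adjusted p of 0.0433, and the other settings 0.240 to 0.676.

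Beside ANKRD1, the endothelial list was uneven. Its sums, 395, 250.3 and 23.6 TPM in T0 replicates 1, 2 and 3 and 34.1, 53.8 and 34.9 TPM in T16 replicates 1, 2 and 3, were high in the T0 libraries that were high in ANKRD1, but CLDN5, a tight junction gene, made up 96.8% and 91.0% of the sum in T0 replicates 1 and 2. Without CLDN5 the other 9 genes summed to 12.7, 22.6 and 9.99 TPM at T0 and 29.8, 22.5 and 18.0 TPM at T16, and did not follow ANKRD1. ESAM, another endothelial adhesion gene, was higher in every T16 library, with 0.0793 to 0.935 TPM at T0 and 12.9 to 17.8 TPM at T16 (log2 fold change 4.86, SE 1.01, edgeR adjusted p = 0.107).

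Of the other endothelial markers, PECAM1 was at 0 in T0 replicate 3 and T16 replicate 1, CDH5 in T0 replicate 2 and T16 replicate 1, and KDR in T0 replicate 3 and T16 replicate 2. EMCN and EGFL7 were at 0 in T0 replicate 3 and in all 3 T16 libraries. VWF, TEK and TIE1 were above 0 in all 6 libraries, at 1.65 to 6.10, 0.151 to 8.18 and 0.0389 to 1.26 TPM. Smooth muscle and pericyte markers summed to 495, 351 and 118 TPM at T0 and 34.8, 307 and 67.1 TPM at T16, in replicates 1, 2 and 3, with ACTA2 and MYH11 at 0 in T16 replicate 1. Without TAGLN, the most abundant of them, the sums were 291, 265 and 104 TPM at T0 and 29.1, 259 and 41.5 TPM at T16. ACTG2 made up most of the sum in T16 replicate 2, with 197 TPM there. It had 52.6, 14.8 and 3.24 TPM in T0 replicates 1, 2 and 3, and 4.02 and 9.43 TPM in T16 replicates 1 and 3. The part of smooth muscle cells and of CLDN5-expressing cells in the ANKRD1 values was not tested.

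**Figure D4:**
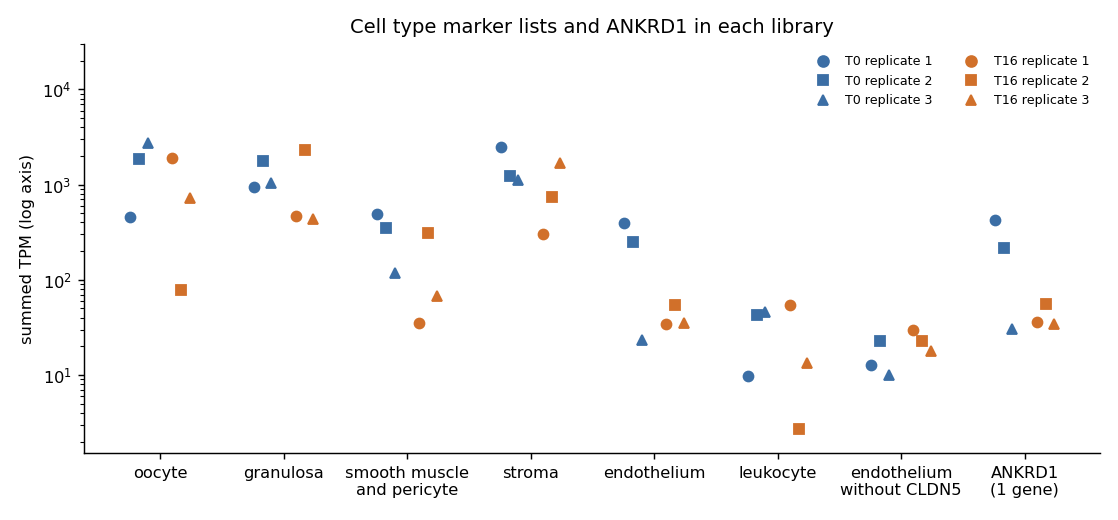
Summed TPM of 6 lists of cell type markers, of the endothelial list without CLDN5, and the TPM of ANKRD1, in each library on a log axis; blue is T0 and orange is T16. ANKRD1 is high in T0 replicates 1 and 2, as is the full endothelial list, whereas the endothelial list without CLDN5 lies between 9.99 and 29.8 TPM in all 6 libraries.

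AXL (NCBI gene 516598), a receptor tyrosine kinase for GAS6 and a YAP target linked to survival and migration, was the most abundant member at T16. It had 142, 70.9 and 41.4 TPM in T0 replicates 1, 2 and 3 and 366, 298 and 228 TPM in T16 replicates 1, 2 and 3. Each T16 library was above each T0 library. The T0 mean was 84.9 TPM (SD 52.0, n = 3) and the T16 mean 298 TPM (SD 69.0, n = 3), which edgeR fitted as a log2 difference of 1.83 (SE 0.56, 95% interval 0.52 to 3.14, edgeR adjusted p = 0.206). Leaving out T0 replicate 3 gave 1.49 and leaving out T0 replicate 1 gave 2.59. Over the 13 settings the adjusted p ran from 0.0215 with DESeq2 to 0.641 without T0 replicate 2. Both AXL transcripts were higher at T16, that of 4692 bases at 70.1 and 214 TPM on average and that of 4646 bases at 14.9 and 83.9 TPM. The annotation used places a long non-coding RNA gene over AXL, and the library kit as described keeps no strand, so reads of the pair could not be told apart by strand.

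T0 replicate 1 and T16 replicate 2, the libraries lowest in oocyte markers in their groups, were also left out together. In that fit the log2 fold change was 2.91 for WWTR1 (edgeR adjusted p = 0.108), 2.62 for AXL (edgeR adjusted p = 0.110) and 1.54 for TEAD1 (edgeR adjusted p = 0.137). CCN2 moved from 1.04 with all 6 libraries to 1.97, and CCN1 from 0.22 to 0.83. AMOTL1 moved from 0.27 to 0.92 and ANKRD1 from -2.39 to -1.56. YAP1, LATS2 and AMOTL2 were at 0.59, -0.27 and 0.37. With these libraries out, edgeR called 0 of the 10 members and 3 had an unadjusted p below 0.05.

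Other targets of YAP had values in both directions. Of a published signature of 22 YAP and WWTR1 target genes, 20 were tested, 6 of them among the 10 genes already described. edgeR called 0. At an unadjusted p below 0.05 there were 3 higher (AXL, CRIM1 and TGFB2) and 1 lower (ANKRD1), against 13.8% of all genes tested in either direction. DESeq2 called AXL higher and ANKRD1 lower, both among the 10 genes, where it called 7.02% of all genes tested. All T16 libraries were above T0 for AXL, CRIM1 and TGFB2, 3 of the 20, a share near the 13.2% of all genes tested, and below for 0 genes. The log2 fold change was above 0 for 13 of the 20 and below 0 for 7, with a median of 0.26. Of all 14639 genes tested, 6817 were above 0. Among signature genes outside the 10, NT5E had the lowest value, -2.24 (SE 1.37, edgeR adjusted p = 0.547), and its groups overlapped. CRIM1, a membrane protein that binds growth factors, had 6.48, 15.9 and 10.4 TPM in T0 replicates 1, 2 and 3 and 40.1, 20.5 and 20.0 TPM in T16 replicates 1, 2 and 3 (log2 fold change 1.42, SE 0.41, edgeR adjusted p = 0.190). TGFB2, a ligand of the TGF-beta receptors, was scarce at T0, with 36, 109 and 2 estimated counts, and reached 493, 173 and 578 counts in T16 replicates 1, 2 and 3 (log2 fold change 3.16, SE 1.19, edgeR adjusted p = 0.296). FOXF2 did not pass the filter on low counts, and NUAK2 was not analysed here.

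Upstream of YAP1 and WWTR1, all 35 genes of a list of Hippo kinases, adaptors and polarity proteins were tested. By edgeR 0 of them were called, with 5 higher and 0 lower at an unadjusted p below 0.05, against 13.8% of all genes tested in either direction. By normalised counts, all T16 libraries were above T0 for 8 of the 35, against 13.2% of all genes tested, and below for 1, AMOT, against 10.6%. The 8 were RASSF1, AJUBA, LATS1, SAV1, TAOK2, WWC2, MOB1B and TAOK1. By TPM there were 6, in which WWC2, MOB1B and TAOK1 overlapped and MOB1A, which overlapped by normalised counts (edgeR adjusted p = 0.506), did not. DESeq2 called 2, RASSF1 and AJUBA, both higher. The median log2 fold change of the list was 0.27.

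RASSF1, a scaffold that binds STK3 and STK4, had 42.6, 24.3 and 26.5 TPM in T0 replicates 1, 2 and 3 and 421, 152 and 220.2 TPM in T16 replicates 1, 2 and 3 (log2 fold change 3.11, SE 0.51, edgeR adjusted p = 0.0877). AJUBA, a LIM protein that binds the LATS kinases, averaged 23.7 TPM (SD 7.54, n = 3) at T0 and 86.3 TPM (SD 40.6, n = 3) at T16 (log2 fold change 1.97, SE 0.48, edgeR adjusted p = 0.138). In both, each T16 library was above each T0 library. SAV1, the adaptor of STK3 and STK4, averaged 27.3 TPM (SD 2.92, n = 3) and 55.5 TPM (SD 16.7, n = 3), and the kinase TAOK2 5.11 TPM (SD 1.28, n = 3) and 12.1 TPM (SD 5.97, n = 3), both with all T16 libraries above T0 (edgeR adjusted p = 0.197 and 0.311). WWC2, a relative of the adaptor KIBRA, was separated by normalised counts but not by TPM, with 12.9 TPM in T0 replicate 1 and 12.1 TPM in T16 replicate 3 (log2 fold change 1.49, SE 0.64, edgeR adjusted p = 0.364). The core kinases STK3 and STK4 had means of 35.6 and 11.98 TPM at T0 and 33.5 and 13.2 TPM at T16. The log2 fold change of STK4 was 0.28 (SE 0.46, 95% interval -0.79 to 1.35, edgeR adjusted p = 0.854).

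**Figure D5:**
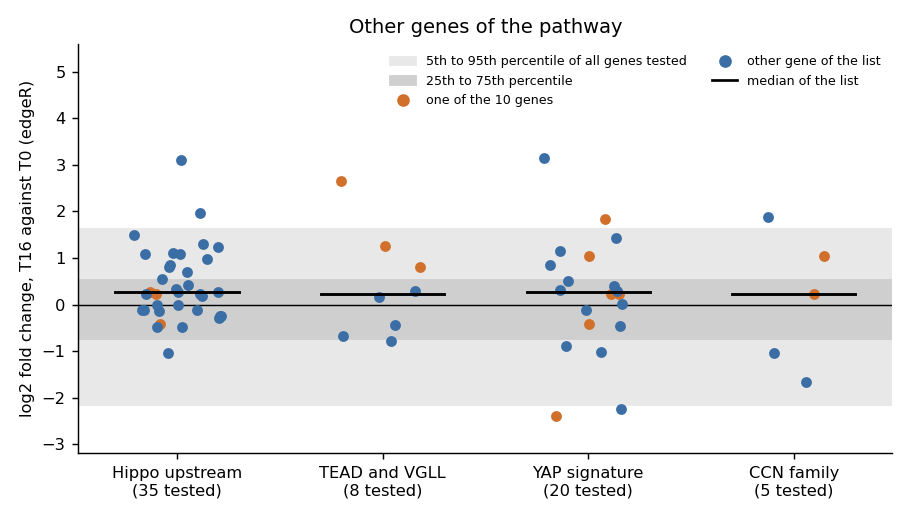
Log2 fold change at T16 against T0 of the tested genes of 4 lists, with 35 Hippo upstream genes, 8 TEAD and VGLL genes, 20 signature genes and 5 CCN genes; orange points are among the 10 genes described, blue points are other genes, black lines are list medians and grey bands span all genes tested from the 5th to the 95th percentile (light) and between the quartiles (dark). The medians, 0.23 to 0.27 for the first 3 lists and 0.22 for the CCN genes, lie within the inner band.

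The members had different profiles over the 6 libraries. Likeness was taken as the Euclidean distance between mean-centred log2 CPM, counts scaled to the normalised library total, over the 6 libraries. It was taken among 10250 genes whose average log2 CPM was 3 or more. CCN1 and CCN2 were 1.35 apart on the log2 scale, and CCN2 was the 123rd nearest gene to CCN1. MXD3 and ENPP1 were nearest to CCN1, at 0.54 and 0.55, and the 3 genes nearest to CCN2 were EVA1B, PDLIM5 and JAGN1, at 0.68 to 0.86. YAP1 lay nearest to PRPF19, LRBA and ITPR2, at 0.75 to 0.94. Of the other members, the one nearest to YAP1 was AMOTL1, at 1.47, and WWTR1 was 3.49 away. The nearest genes were picked from all those compared, so these distances carry no test.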

How the data were processed

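The authors trimmed the reads of each library with Trim Galore and fastp and quantified them with Salmon against the bovine RefSeq transcripts of ARS-UCD1.3. The deposited values are estimated counts, TPM and the length and effective length of each transcript. Transcripts were assigned to genes by accession without version through a RefSeq gene table of ARS-UCD2.0, another assembly, from which no coordinates are given: 50205 of 76123 matched, and the 9.7% to 10.9% of counts in unmatched transcripts were left out. Of the 47 transcripts listed for the 10 members, 37 were in the files. TPM and estimated counts were summed to genes, and the counts rounded to whole numbers.

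T16 was compared with T0 by the quasi-likelihood test of edgeR 4.0.16 (R 4.3.3) with TMM normalization on the 14639 genes that reached 10 counts in 3 or more libraries, with Benjamini-Hochberg adjustment over all of them and a threshold of 0.05. The SE is the log2 fold change divided by the square root of its F statistic. Alternatives were DESeq2 1.42.0, edgeR with the size factors of DESeq2, no count filter or one of 30 counts, offsets for transcript length, the replicate number as a block and leaving out libraries. Scripts were tested on simulated data. The members and lists were chosen with earlier results of these data known. Other genes named are up to 6 a list, whose average log2 CPM was 1 or more and whose T16 and T0 libraries did not overlap, by smallest p; the 3 genes nearest to CCN1, CCN2 and YAP1, of which 1 is not reported here; and paralogs chosen for their levels. VGLL4, MOB1A, MOB1B, TAOK1, NT5E, the other CCN genes, STK3, STK4 and marker genes were added after the values were seen. No reference sequence was used here.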

Additional observations from a re-analysis of the deposited data

How the results depend on the processing

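None of the 10 members was called by edgeR under any of its 12 alternatives (3 or 4 at an unadjusted p below 0.05 in each), and DESeq2 called 4 members, 2 genes of the Hippo upstream list, 2 of the TEAD and VGLL list and 2 of the YAP signature. Over all genes the count of 6 became 1027 with DESeq2, 11 without the count filter, 0 with the replicate block (1385 at an unadjusted p below 0.05), 0 without T0 replicate 1 and T16 replicate 2 together (2263), and 0 to 3 with 1 library left out (1038 to 2379). The deviations of same-numbered libraries from their group means correlated at -0.445, -0.121 and -0.00469 across genes, and none correlated best with its own number. The highest correlation, 0.438, was between T0 replicate 1 and T16 replicate 2, the libraries lowest in oocyte markers. Such correlations also reflect cell content, so they cannot show whether same-numbered pools share a source. With the replicate block the log2 fold change of CCN1 was -0.28. With 1 library left out it ran from -1.03 to 0.60 for CCN1, -0.18 to 1.62 for CCN2, -0.03 to 1.17 for AMOTL1 and -0.01 to 0.39 for AMOTL2; the cause was not tested. WWTR1, TEAD1, AXL, YAP1, LATS2 and ANKRD1 kept their direction under all 13 alternatives. Depth did not leave any member near the count filter.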
